A study of Rattus norvegicus with 13 samples.

Results

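The expression of 9 serotonin receptor genes was examined in rat frontal cortex after experimental head trauma: Htr1a, Htr1b, Htr2a, Htr2c, Htr3a, Htr4, Htr5a, Htr6 and Htr7. They were taken by name: every probe whose gene name in the array files was one of these symbols was used, which gave 13 probes of 30367. Of the 9 genes, 8 were bright enough to be tested among 17258 genes, and Htr4 was not. The tissue came from male Sprague–Dawley rats, whose age is not in the labels, 1 month after the procedure. The groups were rotational trauma (head acceleration rotational injury, 3 arrays) with its own rotational sham (3 arrays), and percussion trauma (lateral fluid percussion, 3 arrays) with its own percussion sham (4 arrays). Rotational injury turns the head rapidly, and fluid percussion sends a pressure pulse onto the surface of the exposed dura. Sham rats were anaesthetised and operated on in full but received no trauma.

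Serotonin reaches the cortex through axons of raphe neurons in the brainstem, and its effect depends on which receptor the receiving cell carries. Receptors of the Htr1 and Htr5 families couple to inhibitory G proteins that lower cyclic AMP. Htr2 receptors couple to Gq and phospholipase C, and Htr4, Htr6 and Htr7 couple to Gs and raise cyclic AMP. Htr3a encodes a subunit of a cation channel that serotonin opens directly.

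Each gene was read by probes of 60 bases. The probes did not share long stretches with each other: over the 78 pairs of the 13 probes, the longest run of identical letters was 4 to 9 bases. Of the 13, 4 are printed to show where within a gene the signal was read. They match the known carboxyl-terminal coding sequence of their receptors, which is background knowledge; the place of the probes within the coding sequence was not computed from the files. Capitals mark the stop codon that ends the Htr1a probe and, in the Htr7 probe, the codons of the asparagine-proline motif that closes the seventh membrane helix of this receptor class; the other sequences carry no mark.
Htr1a: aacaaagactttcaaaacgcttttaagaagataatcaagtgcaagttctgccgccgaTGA
Htr1b: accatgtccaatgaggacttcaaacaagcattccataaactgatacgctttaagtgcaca
Htr2c: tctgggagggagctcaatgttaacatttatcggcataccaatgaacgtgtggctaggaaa
Htr7: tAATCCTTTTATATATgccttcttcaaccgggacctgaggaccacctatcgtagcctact
On the rn4 build used by the array files, the Htr1a probe lies on the plus strand at chr2:36435727-36435786. The Htr1b probe lies on the minus strand at chr8:86700094-86700153, and the Htr2c probe on the minus strand at chrX:31015679-31015738. The Htr7 probe lies on the minus strand at chr1:240145408-240145467.

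Detection differed between probes of the same gene. A probe is called detected here where the scanner software marked its spots as well above background. The coding probe of Htr2c was detected on 2 of 13 arrays, both rotational sham. A second Htr2c probe, which starts 2318 bases further along the same transcript (minus strand, chrX:31013361-31013420), was detected on all 13. For Htr7, the coding probe printed above was detected on 0 of 13 arrays and a second probe (minus strand, chr1:240135108-240135167) on all 13. The labelling protocol in the labels primed the RNA from its poly(A) tail; its part in these calls was not tested. The 2 Htr2a probes (plus strand, chr15:55532171-55532230 and chr15:55533559-55533618) were detected on all 13 arrays. Levels are compared only within a probe, never between probes or genes.

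Signal is given as the log2 of the processed spot signal minus the 75th percentile of its array, called the scaled log2 signal. On this scale 1 unit is a factor of 2, and a negative value is a signal below that percentile. Between 67.0% and 74.1% of spots per array were detected, and replicate arrays had correlations of 0.988 to 0.997 over genes, which are not independent replicates. The rotational arrays filled one slide and the percussion arrays another. Model and slide therefore cannot be told apart, and each trauma group was set only against its own sham. Trauma and sham arrays also differed in the first of the 2 position numbers of an array on its slide, in opposite order on the 2 slides. In bulk tissue fewer cells of a type and less RNA per cell cannot be told apart. All 10 meningeal marker genes were higher in trauma arrays in both models, and their summed signal was 23.7 to 45.5 in rotational trauma and 10.6 to 19.7 in rotational sham, and 29.2 to 60.9 in percussion trauma and at most 21.3 in percussion sham. None of these markers passed (0 in either model), and their part in the receptor results was not tested. Cortical excitatory neuron markers, which check the tissue, had a summed signal of 16.9 to 19.4 in rotational trauma, 17.5 to 19.0 in rotational sham, 16.3 to 18.1 in percussion trauma and 17.5 to 18.9 in percussion sham.

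The first question was which receptors differed after rotational trauma. None of the 8 tested receptor genes passed (0 at an adjusted p under 0.05, limma with Benjamini-Hochberg adjustment over 17258 genes, smallest adjusted p = 0.897), and 0 had an unadjusted p under 0.05. Over all genes 0.0232% passed, which is 4 genes, and 1140 had an unadjusted p under 0.05. That count of 4 was 0 when any of these arrays was left out: replicates 2 and 3 of rotational sham, 2 and 4 of percussion sham, and replicate 2 of either trauma group. It was 2 without rotational sham 1 or percussion sham 3, and 12 without rotational trauma 3. Of the 8 receptor genes 2 were above 0 and 6 below, with log2 differences of −0.30 to 0.12 and a median of −0.07, against a median of −0.01 over all genes. Trauma and sham did not overlap for 1 of the 8, Htr2a, which is to be read against 14.9% of all genes.

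The second question was which receptors differed after percussion trauma. Again 0 of the 8 passed (smallest adjusted p = 0.416), and 1, Htr5a, had an unadjusted p under 0.05. Over all genes limma called 0, or 0%, with 1957 at an unadjusted p under 0.05. Of the 8 receptor genes 5 were above 0 and 3 below, with a median of 0.16, against 0.00 over all genes. Trauma and sham did not overlap for 1 of the 8, Htr5a, against 9.53% of all genes. Htr5a was kept for testing only through detection on every percussion trauma array. Its p and its lack of overlap are not independent of that filter. For Htr1a, Htr5a and Htr6, 3 of the 5 above 0, no percussion sham array was detected, so neither the count nor the median measures their size. The standard error of a difference ran from 0.12 to 0.26 in the rotational and from 0.11 to 0.24 in the percussion model.

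**Figure D1:**
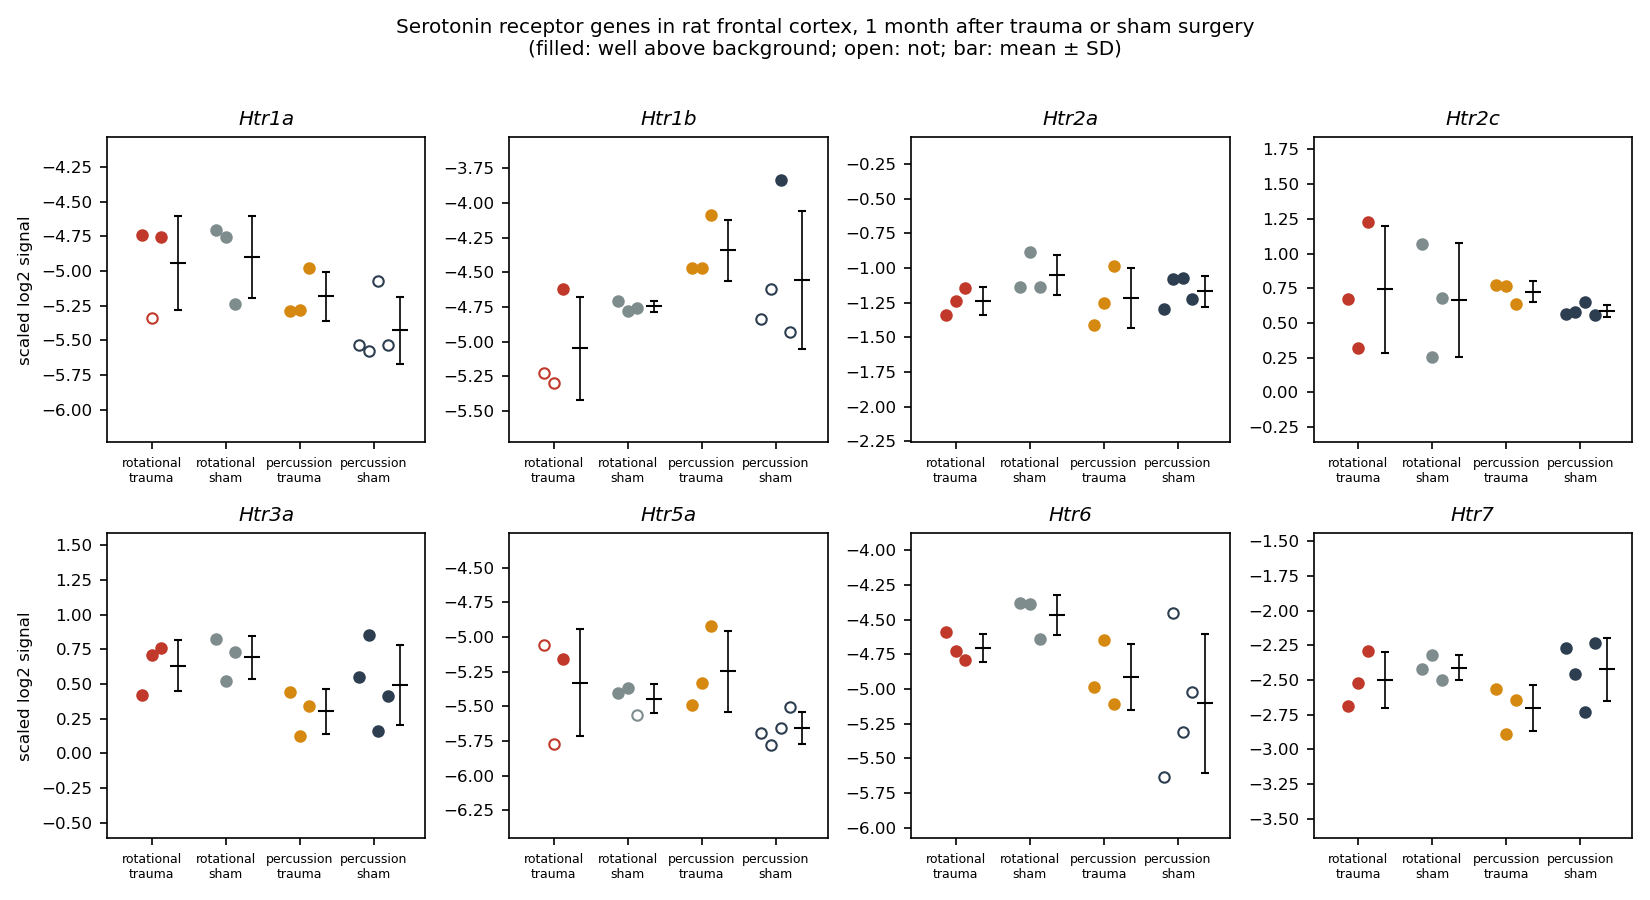
Scaled log2 signal of the tested probe of each of 8 serotonin receptor genes in every array, with trauma left of its sham in each model. Each panel spans the same number of log2 units around its own level; filled points were well above background, open points were not, and bars give mean ± SD. Htr2a, Htr2c, Htr3a and Htr7 are filled throughout, and open points lie in Htr1a, Htr1b, Htr5a and Htr6.

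Among the receptors coupled to Gq, Htr2a, which sits on the dendrites of cortical pyramidal neurons, was detected on every array. Its tested probe gave −1.34, −1.24 and −1.14 in rotational trauma, against −1.14, −0.89 and −1.14 in rotational sham. All 3 trauma values lay below every sham value, but the nearest values of the groups are the same to the second decimal. The means were −1.24 ± 0.10 in rotational trauma and −1.05 ± 0.14 in rotational sham (SD, n = 3 each), a difference of −0.19 (SE 0.12, 95% interval −0.45 to 0.07) that did not pass (limma adjusted p = 0.897). The other Htr2a probe gave −1.73, −1.57 and −1.47 in rotational trauma, against −1.51, −1.25 and −1.45 in rotational sham, where the groups overlapped. Its difference was also −0.19 (SE 0.12). In the percussion model the tested Htr2a probe gave −1.41, −1.26 and −0.98 in trauma, against −1.30, −1.08, −1.07 and −1.23 in sham. The trauma values spanned the sham values, and the difference was −0.05 (SE 0.11, 95% interval −0.29 to 0.19; limma adjusted p = 0.901).

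Htr2c, the Gq-coupled receptor that is most abundant in choroid plexus, gave 0.67, 0.32 and 1.23 in rotational trauma, against 1.07, 0.25 and 0.68 in rotational sham. Both rotational groups were spread over nearly the same range, and the difference was 0.07 (SE 0.22, 95% interval −0.41 to 0.55). In the percussion model it gave 0.77, 0.76 and 0.64 in trauma, against 0.56, 0.58, 0.65 and 0.56 in sham. There 2 of 3 trauma values lay above every sham value, and the difference of 0.14 did not pass (SE 0.20, limma adjusted p = 0.838). The SD of Htr2c was 0.45 and 0.41 in rotational trauma and sham, against 0.08 and 0.05 in percussion trauma and sham.

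Markers of tissue next to the cortex were set beside the spread of Htr2c. The summed signal of 10 tested striatal marker genes was 22.5, 16.3 and 26.5 in rotational trauma 1 to 3, against 42.1, 17.5 and 32.7 in rotational sham 1 to 3. In both groups the arrays stood in the same order as for Htr2c, with the second array lowest. Ttr, which encodes the carrier protein transthyretin and marks choroid plexus, gave −2.53, −3.17 and −0.44 in rotational trauma and −0.38, −6.76 and −1.83 in rotational sham, again in that order; it was detected on 2 of 3 rotational sham arrays and on every other array. In the percussion arrays the striatal sum stayed between 15.4 and 16.5 in trauma and between 16.5 and 17.1 in sham. There Ttr gave −1.38, −1.23 and −2.77 in trauma and −4.38, −2.27, −1.96 and −3.61 in sham, a wide spread that Htr2c did not have. Of the 10 choroid plexus markers only 4 were tested, and Clic6, Kl and F5 were detected on 0 of 13 arrays. The 4 had a median difference of 1.07 in the rotational and 1.26 in the percussion model, and 0 passed. Aqp1, a water channel gene, differed by 1.62 and 1.73, and Kcnj13, a potassium channel gene, by 1.19 and 1.25. Ttr differed by 0.94 (SE 1.37) and 1.26 (SE 1.28). Kcne2, the remaining marker, differed by 0.10 in the rotational model and went the other way in the percussion model, at −0.36. The summed signal of the 4 was 1.73, 0.91 and 1.75 in rotational trauma and 1.42, 0.47 and 0.78 in rotational sham. In percussion trauma this sum was 2.02, 1.41 and 0.79, and in percussion sham 0.63, 0.72, 0.87 and 0.40. Within each group, in both models, the sum put the arrays in the same order as Htr2c, although the percussion values of Htr2c lay close together. The part of these tissues in the Htr2c values was not tested.

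Htr3a, the channel subunit that is carried in cortex by a class of interneurons, was detected on all 13 arrays (probe on the minus strand, chr8:52161175-52161234). It gave 0.42, 0.71 and 0.76 in rotational trauma, against 0.82, 0.52 and 0.73 in rotational sham, and the groups overlapped (difference −0.06, SE 0.16). In percussion trauma it gave 0.44, 0.13 and 0.35, against 0.55, 0.85, 0.16 and 0.41 in percussion sham. All 3 trauma values lay below the sham mean, yet percussion sham 3 was nearly as low as the lowest of them. The means were 0.31 ± 0.16 in percussion trauma (SD, n = 3) and 0.49 ± 0.29 in percussion sham (SD, n = 4), and the difference of −0.19 did not pass (SE 0.15, 95% interval −0.53 to 0.15; limma adjusted p = 0.669). The 12 tested interneuron markers had medians of −0.06 in the rotational and −0.03 in the percussion model, and 0 passed.

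Of the receptors coupled to Gs, Htr7 was detected on every array. Its tested probe gave −2.69, −2.52 and −2.29 in rotational trauma, against −2.42, −2.32 and −2.50 in rotational sham, a difference of −0.09 (SE 0.14) with overlapping groups. In percussion trauma it gave −2.57, −2.89 and −2.65, against −2.27, −2.45, −2.73 and −2.24 in percussion sham. All 3 trauma values lay below the sham mean, and percussion sham 3 lay among them. The means were −2.70 ± 0.17 in percussion trauma (SD, n = 3) and −2.42 ± 0.23 in percussion sham (SD, n = 4). The difference of −0.28 was the lowest of the 8 in that model and did not pass (SE 0.13, 95% interval −0.57 to 0.02; limma adjusted p = 0.468).

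Htr6, whose highest expression in rodent brain is in the striatum, was read by a probe that the files place on the unassembled part of chromosome 5 (5_random, 1682723 to 1682782, minus strand). It gave −4.59, −4.73 and −4.79 in rotational trauma, against −4.38, −4.39 and −4.64 in rotational sham, and was detected on all 6 of these arrays. In that model 2 of 3 trauma values lay below every sham value, and the difference of −0.24 did not pass (SE 0.24, 95% interval −0.76 to 0.29; limma adjusted p = 0.999). The 10 tested striatal markers were lower in rotational trauma in 10 of 10 cases with a median of −0.44, none of them past the threshold (0 passed). Within neither rotational group did their summed signal put the arrays in the same order as Htr6. In the percussion model 8 of the 10 were lower, with a median of −0.08. The part of these markers in the Htr6 value was not tested. In the percussion model Htr6 was detected on 3 of 3 trauma arrays, at −4.99, −4.65 and −5.11, and on 0 of 4 sham arrays, which read −5.63, −4.45, −5.31 and −5.02. The trauma values lay inside the range of the sham readings, and percussion sham 2 read above all of them. The difference had a 95% interval of −0.30 to 0.68 (limma adjusted p = 0.781), and no fold is given.

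Htr4 was not detected on any array (0 of 13) with either of its 2 probes (plus strand, chr18:58468820-58468879 and chr18:58509623-58509682), so it has no level or difference in these data.

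The 3 remaining receptors couple to inhibitory G proteins, and all were dim. Htr1a, which acts both as the autoreceptor of raphe neurons and as a receptor on cortical neurons, was detected on 2 of 3 rotational trauma and 3 of 3 rotational sham arrays. It gave −4.74, −5.34 and −4.76 in rotational trauma, against −4.70, −4.76 and −5.24 in rotational sham. Each group held a pair of like values and a lower one, and the difference was −0.05 (SE 0.20, 95% interval −0.48 to 0.39). In the percussion model Htr1a was detected on 3 of 3 trauma arrays, at −5.29, −5.28 and −4.98, and on 0 of 4 sham arrays, which read −5.54, −5.58, −5.07 and −5.53. Percussion sham 3 stood apart from the other sham arrays and within the trauma range. The difference had a 95% interval of −0.17 to 0.66 (limma adjusted p = 0.646), and with sham not well above background no fold is given.

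Htr1b, a receptor on axon terminals that limits transmitter release, was detected on 1 of 3 rotational trauma arrays and 3 of 3 rotational sham arrays. It gave −5.23, −5.30 and −4.62 in rotational trauma, against −4.71, −4.78 and −4.76 in rotational sham. Rotational trauma 3, the array where it was detected, lay above every sham value and the other 2 below, so the groups overlapped (difference −0.30, SE 0.26, 95% interval −0.88 to 0.27; limma adjusted p = 0.982). In percussion trauma Htr1b was detected on 3 of 3 arrays at −4.47, −4.47 and −4.09, and in percussion sham on 1 of 4, with readings of −4.84, −4.62, −3.83 and −4.93. The detected sham array, percussion sham 3, was the highest of all 13 arrays. The difference was 0.21 (SE 0.24, limma adjusted p = 0.774). It was 0.45 without percussion sham 3, and 0.09 without percussion trauma 3 or percussion sham 4.

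Htr5a, a receptor of cortical and hippocampal neurons, was read by a probe on the minus strand at chr4:2707261-2707320. It was detected on 1 of 3 rotational trauma arrays and 2 of 3 rotational sham arrays, with readings of −5.05, −5.77 and −5.16 in trauma and −5.41, −5.37 and −5.57 in sham. The trauma readings lay on both sides of the sham readings (difference 0.12, SE 0.18). In percussion trauma Htr5a was detected on 3 of 3 arrays at −5.49, −5.33 and −4.92, against 0 of 4 percussion sham arrays with readings of −5.70, −5.78, −5.66 and −5.50. All 3 trauma readings lay above every sham reading, although percussion trauma 1 and percussion sham 4 differed by less than 0.05. The probe was kept for testing only because it was detected on every percussion trauma array, the group where it read highest. The separation and the unadjusted p therefore come from a comparison that also admitted the gene, and lend it no support. The fitted difference of 0.41 (SE 0.17, unadjusted p = 0.0354) did not pass over all genes (limma adjusted p = 0.416). It was 0.25 without percussion trauma 3, 0.14 with normexp background correction and 0.11 in the deposited table. With sham not well above background and no bound above 1, no fold can be given for it.

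**Figure D2:**
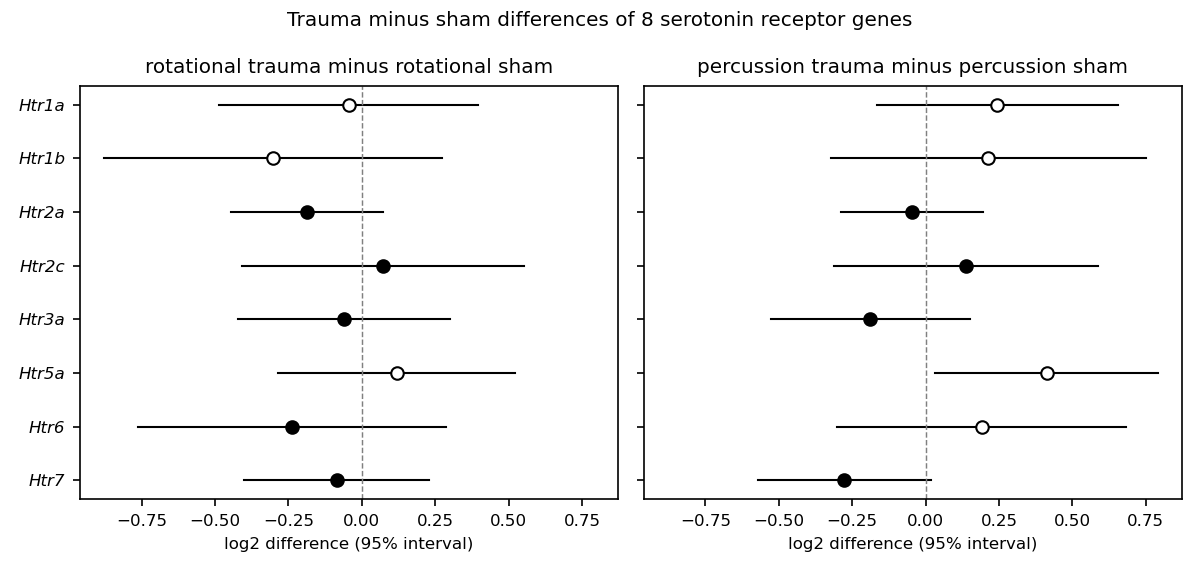
Log2 difference, trauma minus sham, of 8 serotonin receptor genes in the rotational (left) and percussion (right) model, with 95% intervals from the fit over 13 arrays. Filled points were well above background on every array of both groups and open points were not; the interval of Htr5a in the percussion model, an open point, is the only one of the 16 that leaves out 0, and it did not pass after adjustment.

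For these dim probes, detection did not go with brightness alone. The lowest scaled log2 signal that was detected was −5.05, −5.13 and −5.92 on rotational trauma 1 to 3, against −6.22, −6.23 and −5.98 on rotational sham 1 to 3. It was −5.78, −6.11 and −6.16 on percussion trauma 1 to 3, against −5.16, −5.21, −5.08 and −5.32 on percussion sham 1 to 4. The 6 arrays with the highest limits had first position number 2, which is held by trauma arrays in the rotational and sham arrays in the percussion model; rotational trauma 3 also has this number and had a limit of −5.92. Of the 13 receptor probes, 7, 6 and 9 were detected on rotational trauma 1 to 3, against 10, 9 and 9 on rotational sham 1 to 3. In the percussion model 9 were detected on each trauma array, against 5, 5, 6 and 5 on sham 1 to 4. Single spots show the same. In percussion trauma 3 the Htr6 spots had processed signals of 44.2 and 47.9 and both were called detected, whereas in percussion sham 2 the Htr6 spots had 58.3 and 106.7 and the dimmer was not. Within a model, the first position number and trauma cannot be told apart.

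**Figure D3:**
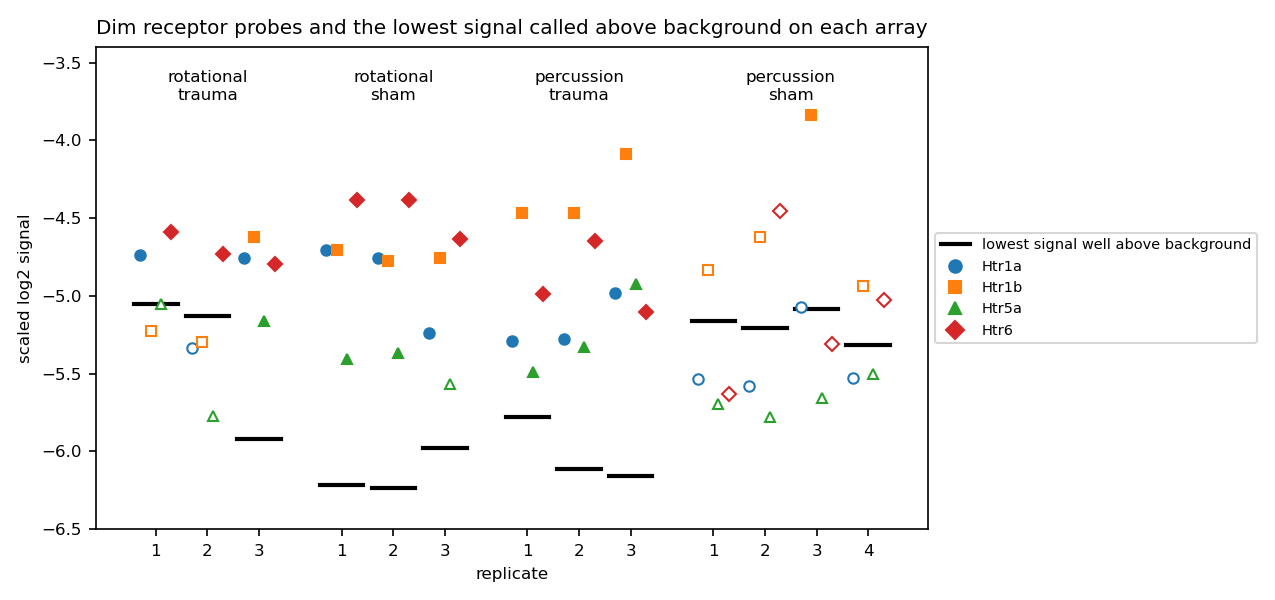
Scaled log2 signal of the 4 dim receptor probes (Htr1a, Htr1b, Htr5a, Htr6) on each of 13 arrays; black bars give the lowest signal called well above background on that array, filled symbols were called so and open symbols were not. The bars sit between −5.32 and −5.05 on percussion sham and on rotational trauma 1 and 2, and at −5.78 or lower on the other arrays.

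The last questions were what the models shared and where they differed. For the mean of both differences 0 of the 8 receptor genes passed (smallest adjusted p = 0.593) and 0 had an unadjusted p under 0.05. Over all genes limma called 0, or 0%, with 1523 at an unadjusted p under 0.05. Htr2a, Htr3a and Htr7 were below 0 in both models, with means of −0.12 (SE 0.08), −0.12 (SE 0.11) and −0.18 (SE 0.10). Htr2c and Htr5a were above 0 in both, with means of 0.11 (SE 0.15) and 0.26 (SE 0.13). The Htr5a values rest on readings that were not detected in percussion sham, so no direction is read from them. For Htr1a, Htr1b and Htr6 the fitted values were below 0 in the rotational and above 0 in the percussion model, but percussion sham was detected on 0, 1 and 0 of 4 arrays for them, so no direction is read from this. The test of the difference, rotational minus percussion, was also fitted. None of the 8 passed that test (0, smallest adjusted p = 0.748), and over all genes it called 0, or 0%, with 1377 at an unadjusted p under 0.05.

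The wider serotonin system was described with 4 lists, and 0 of their tested genes passed in any of the 4 contrasts. Of the 5 other receptor genes, Htr1d and Htr5b were tested. Htr1f and Htr3b were detected on 0 of 13 arrays and Htr2b on 1. Htr5b, a receptor gene that rats and mice keep and humans have lost, ranged from −6.76 to −4.51 in rotational trauma and from −7.14 to −5.83 in rotational sham. In the percussion model it ranged from −4.30 to −3.52 in trauma and from −4.85 to −2.82 in sham. Htr5b was detected on 1 of 3 rotational trauma and 0 of 3 rotational sham arrays, so its rotational readings are at background and no difference is given. It was detected on 3 of 3 percussion trauma and 3 of 4 percussion sham arrays, where the difference of −0.21 was smaller than its SE of 0.61. All percussion arrays but percussion sham 2 and 3 lay clearly above every rotational array, and model and slide cannot be told apart. Htr1d, a receptor of axon terminals like Htr1b, differed by −0.03 (SE 0.26) and −0.02 (SE 0.25).

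Of 13 genes for synthesis, transport and breakdown of serotonin, 11 were tested. Tph1, a tryptophan hydroxylase of peripheral tissue, and Slc6a4, the serotonin transporter of raphe neurons, were detected on 0 of 13 arrays. Of the 5 raphe neuron markers, which include Slc6a4, the transcription factor genes Fev and En1 were also detected on 0 of 13 arrays. The other raphe markers were tested: Tph2, the tryptophan hydroxylase of the brain, was detected on 9 of 13 arrays and the transcription factor gene Lmx1b on 12. Tph2 differed by 0.08 (SE 0.22) in the rotational and −0.25 (SE 0.21) in the percussion model, and Lmx1b by −0.08 (SE 0.13) and 0.20 (SE 0.12). The 11 genes had 7 above 0 and 4 below in the rotational model (median 0.06) and 4 above and 7 below in the percussion model (median −0.07). Maoa, the monoamine oxidase that breaks serotonin down, gave 0.11, 0.23 and 0.23 in rotational trauma, against 0.01, −0.04 and 0.02 in rotational sham. These groups did not overlap, which held for 14.9% of all genes. The difference of 0.19 did not pass (SE 0.08, limma adjusted p = 0.658), and in the percussion model it was −0.02. Slc18a1, a vesicular monoamine transporter best known from endocrine cells, gave −3.83, −3.07 and −3.82 in rotational trauma, against −3.03, −2.55 and −3.04 in rotational sham. All 3 trauma values lay below the sham values, narrowly for rotational trauma 2, again against 14.9% of all genes without overlap. The Slc18a1 difference of −0.70 did not pass (SE 0.26, limma adjusted p = 0.596). Its percussion difference was −0.16 (SE 0.24). Ddc, the decarboxylase of the last step of synthesis, differed by −0.18 and −0.23 (SE 0.23 and 0.22).

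The coupling list holds the G proteins, cyclases, phospholipases, kinases and channels that the receptors act through. Of its 32 genes 31 were tested, with 11 above 0 and 20 below in the rotational model (median −0.05) and 15 above and 16 below in the percussion model (median −0.01). Gna11, an alpha subunit of the Gq class through which Htr2a and Htr2c signal, gave −2.09, −2.02 and −2.16 in rotational trauma, against −2.23, −2.32 and −2.24 in rotational sham. In percussion trauma it gave −2.25, −2.12 and −2.29, against −2.55, −2.39, −2.51 and −2.33 in percussion sham. Every trauma value lay above every sham value of its own model. Over all genes 14.9% did not overlap in the rotational and 9.53% in the percussion model, in either direction. The share that did so in both models was not counted. Gna11 was also named because its p for the mean of both differences was among the smallest of its list. The mean of both differences was 0.20 (SE 0.05, unadjusted p = 0.00326), the smallest of the 4 lists for this mean, and it did not pass (limma adjusted p = 0.251). Gnb1, a G protein beta subunit, had a mean difference of 0.12 (SE 0.05). Plcb1, a phospholipase C of the Htr2 pathway, had a mean difference of −0.14 (SE 0.06).

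The partner list holds proteins that bind, desensitise or edit the receptors, and all 21 of its genes were tested. In the rotational model 7 were above 0 and 14 below (median −0.05), and in the percussion model 14 above and 7 below (median 0.06). Cav1, a scaffold of membrane caveolae that is abundant in endothelial cells, gave 0.96, 0.65 and 1.02 in rotational trauma, against 0.69, 0.47 and 0.66 in rotational sham. In percussion trauma it gave 1.03, 0.89 and 1.11, against 0.78, 0.93, 0.82 and 0.70 in percussion sham. The groups overlapped slightly in both models, and the mean difference of 0.24 did not pass (SE 0.08, limma adjusted p = 0.339). The G protein regulators Rgs4 and Rgs7 had mean differences of −0.10 (SE 0.07) and −0.11 (SE 0.10).

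**Figure D4:**
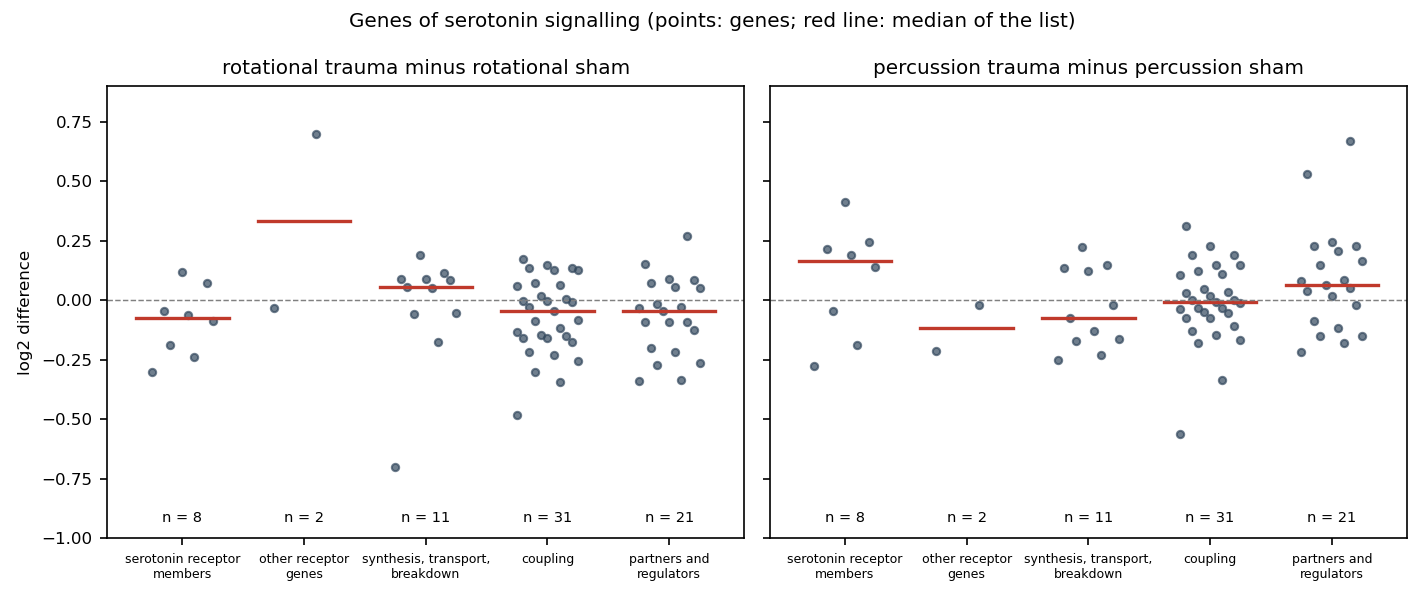
Log2 difference, trauma minus sham, of each tested gene in the rotational (left) and percussion (right) model, for the 8 receptor genes and 4 lists of the serotonin system; red lines are list medians. Points lie on both sides of 0 in the lists of 8, 11, 31 and 21 genes, and no gene shown passed the threshold; the highest rotational point of the other receptor genes is Htr5b, whose rotational readings are at background.

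Finally, the genes whose pattern was most like each receptor over the 13 arrays were found after subtracting the mean of each slide. Correlations are a description over arrays that share their trauma or sham label. Each match is the highest among those of the 17258 tested genes that have a symbol. With 13 arrays and so many genes, high values can arise without any relation, and no test was made. Htr2c had the closest match, Filip1 at r = 0.96, followed by Ndst4 at 0.92 and Klhl13 at 0.90. The nearest genes were Atp4a (0.90) and Crym (0.90) for Htr2a, Cysrt1 (0.91) for Htr3a, Ypel4 (0.90) for Htr7 and Adgrl3 (0.87) for Htr6. They were Cd44 (0.90) for Htr5a, Rbm48 (0.85) for Htr1b and St3gal1 (0.85) for Htr1a. Htr1a, Htr1b, Htr5a and Htr6 all had arrays below detection. Among the receptors themselves the highest correlations were 0.75 for Htr1a with Htr5a and 0.68 for Htr1a with Htr1b, all dim, and 0.60 for Htr3a with Htr7.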

How the data were processed

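Total RNA of 13 samples was hybridised to 1-colour Agilent arrays, 1 per sample. Spots were extracted with Agilent Feature Extraction 10.5.1.1, per the file headers. The processed signal in the deposited files is a linear intensity, background-subtracted and detrended within the array. In a further table, deposited by the authors, the values are log2; every column has the median 8.154 and the sorted values agree to an SD of 0.00418, so its scale is quantile-normalised. All 13 columns matched their own array best (13 of 13).

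From the scanner files, 4259 control spots of 62976 and spots marked as outliers were left out. Spots of a probe were averaged as log2 values, and the 75th percentile of each array was subtracted. A probe counted as detected where more than 0.5 of its spots were well above background (both spots, where it had 2). Probes detected on every array of at least 1 group (20026) were kept, and the brightest per gene was tested (17258 genes). Names came from RefSeq symbols matched by accession (18350 probes), symbol (2495) or synonym (539), and 8983 probes kept the file's name. Probe coordinates and sequences are those of the files.

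R 4.3.3 with limma 3.58.1 fitted group means to all 13 arrays (9 residual and 2.30 prior degrees of freedom). The 4 two-sided contrasts were adjusted by Benjamini-Hochberg at 0.05, and the fit was tested on simulated data. Where no array of a group was detected, no fold is given. Nothing says that samples of a group came from separate preparations beyond their labels, so p-values measure the spread between these samples. All 9 receptors are named. Of the other lists, any gene that passed is named, with the 3 of smallest p for the mean of both effects. Of the 3 genes most correlated with each receptor, at least the closest is named. Tissue markers named beside a receptor were chosen after their values were seen. The receptors, lists and tests were chosen with earlier results of these data known. The alternatives were another background correction, other scalings, the deposited table, no filter, all probes of a gene and each model alone. Further ones were the replicate number as a block, the second position number of the array as a covariate, and leaving out each array.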

Additional observations from a re-analysis of the deposited data

Results flagged for a closer look

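Htr1a in percussion sham 3 read −5.07, whereas the other 3 percussion sham arrays read −5.58 to −5.53. The gap to the nearest other array was 0.908 of the group's range, above the 95% critical value of 0.829 for 4 samples. On percussion sham 3 the 2 spots of the probe had processed signals of 41.6 and 79.2, and only the brighter was called well above background. The probe was not well above background on any of these arrays (0 of 4). The 13 receptor probes were examined in this group, and chance alone marks about 1 group in 20.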

How the results depend on the processing

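None of the 8 receptor genes passed in any contrast under any alternative (0). Over all genes the rotational count of 4 was 0 with quantile normalisation or the second position number as a covariate, and 2 with median scaling. Without the filter on dim probes it was 1861 (1791 higher, 70 lower), the percussion count was 3115 instead of 0 (240 higher, 2875 lower) and the count for the difference 3897 instead of 0; in both models most of these calls were higher on the arrays of first position number 2. With the second position number the counts were 4 for percussion and 7 for the mean, each instead of 0. The first position number was not adjusted for, since within a slide it cannot be told apart from trauma. Leaving out an array in turn gave 0 to 12 for rotational, 0 to 5 for percussion, 0 to 32 for the mean (32 without rotational trauma 2) and 0 to 9 for the difference.

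Replicate numbers did not pair the samples: same-numbered arrays deviated together at r = 0.11, 0.27 and 0.02 in the rotational and 0.28, −0.02 and −0.01 in the percussion model. The replicate block gave 0 genes for rotational and 41 for the mean.

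Signs of values near 0 turned as follows. With normexp background correction the rotational Htr5a was −0.13, the percussion Htr1a −6.2e-05 and Htr6 −0.026, and the mean Htr1a −0.055. The mean Htr6 was 0.0032 with quantile normalisation, the mean Htr1a −0.016 in the deposited table and the mean Htr1b 0.051 with the second position number. Leaving out 1 array gave rotational values of −0.21 to 0.15 for Htr1a, −0.17 to 0.28 for Htr2c, −0.15 to 0.045 for Htr3a, −0.019 to 0.34 for Htr5a and −0.19 to 0.0076 for Htr7. It gave percussion values of −0.16 to 0.050 for Htr2a. For the mean it gave −0.15 to 0.076 for Htr1b, −0.016 to 0.21 for Htr2c and −0.11 to 0.085 for Htr6, and for the difference −0.31 to 0.14 for Htr2c. Values that kept their sign but moved by over 1.5 times include the percussion Htr1b (0.03 to 0.45 over all alternatives), the percussion Htr5a (0.11 to 0.53) and the mean Htr5a (0.0036 to 0.38). The cause of these shifts was not tested. Precision is limited by the number of arrays, and for Htr1a, Htr1b, Htr5a and Htr6 by signals near background.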
